A study of Homo sapiens with 6 samples.

Results

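The genes described here are 41 genes of autophagy and the lysosome, taken by symbol from a table of 19892 genes. They were measured by RNA sequencing in the HEK293 line, established from human embryonic kidney and grown in serum-containing medium. Of the 6 libraries, 3 came from wild-type cells and 3 from HEK293 cells in which CNBP, which encodes a zinc-knuckle protein that binds single-stranded nucleic acids, had been disrupted with CRISPR-Cas9. The labels do not say whether the knockout cells were 1 clone or a pool, nor whether the libraries within each group are separate cultures. The authors' deposited table holds 1 FPKM value (fragments per kilobase of transcript, scaled to sequencing depth) for each gene and group, so the values below carry no standard error and no p-value, and no difference could be set against replicate error.

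Autophagy encloses cytoplasm in a double membrane, the autophagosome, which then fuses with the lysosome for digestion. A kinase complex starts the process, a lipid kinase marks the membrane, lipid-transfer proteins feed it, and ubiquitin-like enzymes attach proteins of the ATG8 family to it, to which cargo receptors bind. The lysosome supplies acid hydrolases, a proton pump that acidifies its lumen, and membrane glycoproteins. The transcription factors TFEB and TFE3 bind a short element found in the promoters of many lysosomal and autophagy genes, and mTORC1, a nutrient-sensing kinase at the lysosomal surface, keeps them in the cytoplasm.

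By role, 24 of the 41 genes belong to the autophagosome machinery, 15 to the lysosome and 2 are the transcription factors. Of these, 40 had an FPKM of at least 1 in one column and above 0 in both, and were compared. Each log2 ratio divides the knockout column by the wild-type column. Among the 13219 genes compared, the median log2 ratio was -0.01. CNBP itself was at 202 FPKM in wild type and 214 in knockout, and since a frameshift can abolish a protein while the transcript persists, this does not check the column labels.

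At a fold of 1.5 or more, no autophagy or lysosome gene was higher in the knockout column and 3 of 40 were lower: TFEB, CTSZ and GAA. Of all genes compared, 1.48% were higher and 2.78% lower by that fold, 4.27% in all. At a fold of 1.2 or more, 1 gene (GLA) was higher, against 8.62% of all genes compared, and 4 (those 3 and OPTN) were lower, against 13.2%. Together these are 5 of 40 or 12.5%, against 21.8%. The other 35 genes lay within 1.2-fold. The members' median absolute log2 ratio was 0.13, the same as over all genes (0.13). These counts depend on level, because low values scatter more. Between 1 and 5 FPKM (mean of the columns), 7.83% of genes were lower by 1.5-fold, while between 5 and 20 FPKM it was 1.65% and between 20 and 50 FPKM 0.564%.

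**Figure D1:**
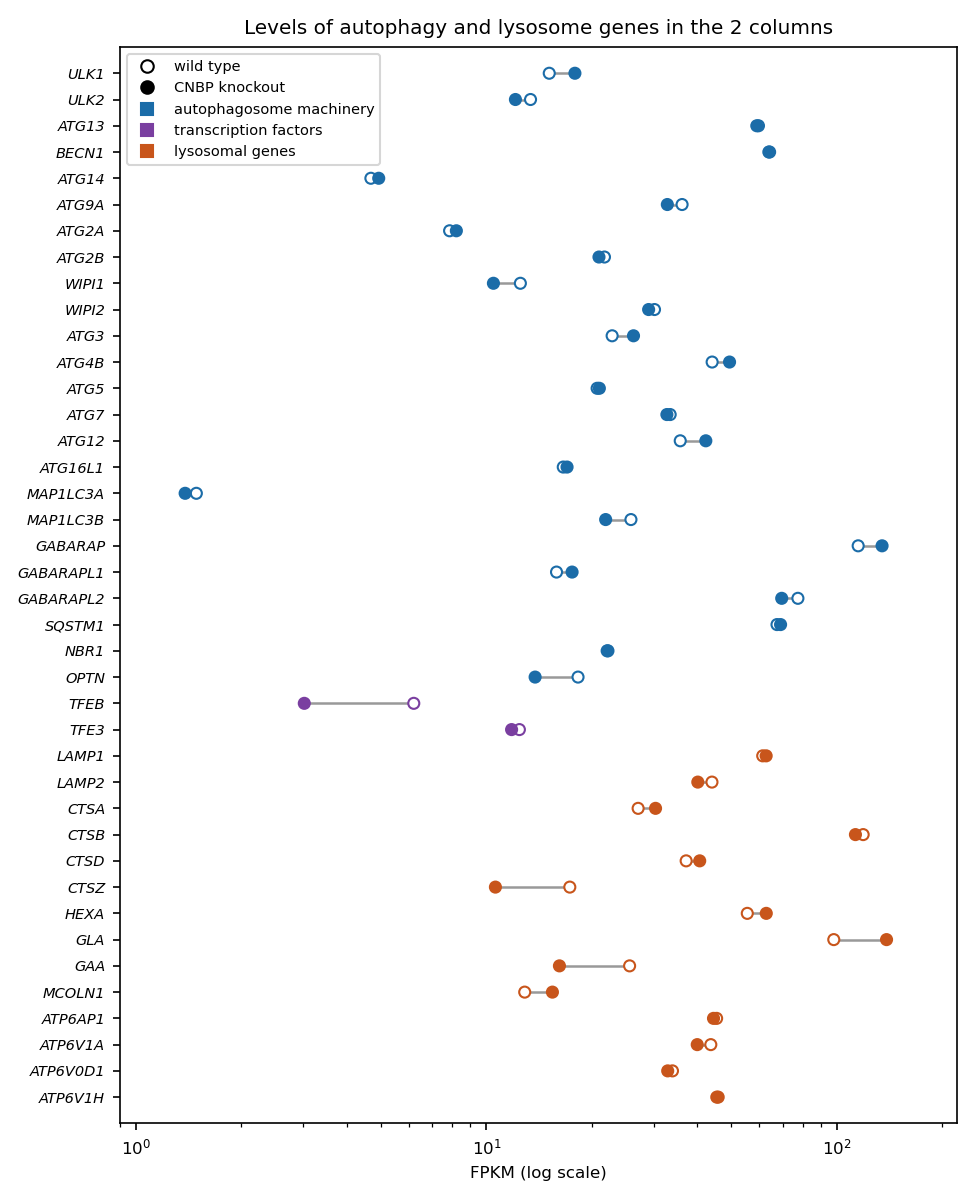
FPKM (log scale) of the 40 compared genes in wild type (open circles) and CNBP knockout (filled circles), coloured by autophagosome machinery, transcription factors and lysosomal genes, 1 deposited value per group. Most pairs nearly coincide, while TFEB, CTSZ and GAA sit lower and GLA higher in the knockout column.

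TFEB, the transcription factor that switches on lysosomal and autophagy genes, stood lowest of all 40. The value was 6.21 FPKM in wild type against 3.02 in knockout, a 2.05-fold difference (log2 ratio -1.04). Of the 2785 genes with a mean between 1 and 5 FPKM, as for TFEB, 49 (1.76%) were lower by 2-fold or more, and the central 95% of their log2 ratios ran from -0.86 to 0.72. TFEB lay below that range. Between 5 and 20 FPKM, 0.206% of genes were lower by 2-fold or more, and the mean of TFEB lay only a little under 5 FPKM. Its relative TFE3, which binds the same element, was at 12.4 FPKM in wild type and 11.8 in knockout (log2 ratio -0.07) and was therefore the more abundant of the pair in both columns. Of the other relatives, named after their values were seen, MITF was at 3.37 FPKM in wild type and 4.75 in knockout (log2 ratio 0.50), and TFEC was below 1 FPKM in both.

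The TFEB value did not move with its surroundings. TFEB (ENSG00000112561, chromosome 6) overlaps no other gene of the table, and the median log2 ratio of its 20 nearest compared genes was 0.01. Of the 10 compared genes on each side in gene order, the ratios ran from -0.93 to 0.42, and DAAM2, 5 genes away, was the low end. Low nonzero values, multiplied by the length of the longest transcript in kilobases, were taken as a rough size for a single step. A fixed window from 0.012 to 0.024, the same for both columns, held 270 values in wild type and 276 in knockout. Their medians were 0.0171 and 0.0174, with 0 and 2 values in the octave below and a few lower still. On that scale the TFEB value is about 941 steps in wild type and about 451 in knockout. Because the window was the same for both columns, the nearness of the medians does not show that the steps were of equal size. No source used here says whether a step is 1 fragment of 1 library, and whole reads were not recovered.

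**Figure D2:**
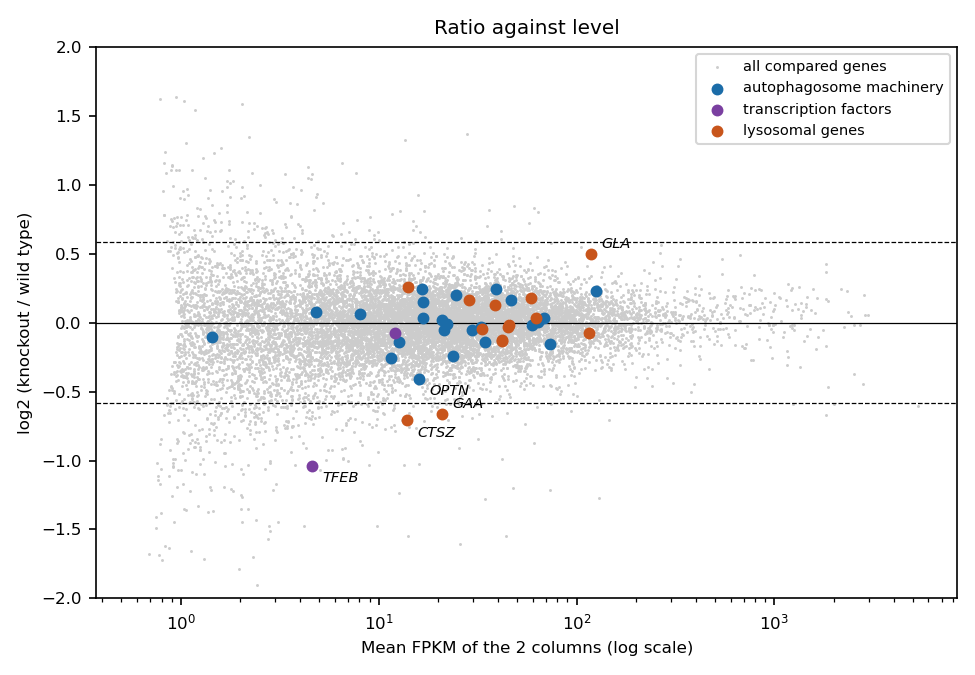
The log2 ratio of knockout over wild type against the mean FPKM of the columns (log scale) for all compared genes (grey) and the 40 autophagy and lysosome genes (coloured by role), with dashed lines at 1.5-fold; 19 genes lie beyond the vertical axis. TFEB, CTSZ and GAA fall below the lower dashed line, and no member lies above the upper one.

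The autophagosome machinery showed little difference between the columns, as did most genes compared. All 24 genes were compared, 12 had a ratio above 0 and 12 below, and the median log2 ratio was -0.00, between -0.41 for OPTN and 0.24 for ULK1. None reached 1.5-fold, against 4.27% of all genes compared, and 1 (4.17%) reached 1.2-fold, against 21.8%. Their median absolute log2 ratio was 0.12, close to the 0.13 over all genes compared. Their summed level was 782 FPKM in wild type and 798 in knockout.

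The starting complexes differed in single genes. ULK1, the kinase that starts autophagy, was at 15.1 FPKM in wild type and 17.9 in knockout (log2 ratio 0.24), while its relative ULK2 was at 13.4 and 12.1 FPKM (-0.14). ATG13, the subunit that joins the kinase to its scaffold, was at 59.7 and 59.1 FPKM (-0.02). Summed over these 3 genes, the level was 88.2 FPKM in wild type and 89.1 in knockout. BECN1, the core of the lipid kinase complex, was at 63.9 and 64.3 FPKM (log2 ratio 0.01). ATG14, which directs that complex to autophagy, was among the least abundant members, at 4.68 and 4.93 FPKM (0.07).

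Genes for membrane supply had small ratios. ATG9A, the transmembrane scramblase, was at 36.2 FPKM in wild type and 32.8 in knockout (log2 ratio -0.14), and WIPI1, which reads the lipid mark, at 12.5 and 10.5 FPKM (-0.26). WIPI2, the relative that recruits the conjugation enzymes, had a log2 ratio of -0.06 at 30.2 FPKM in wild type. The lipid-transfer proteins ATG2A and ATG2B had log2 ratios of 0.06 and -0.05. Of the 5 genes, 4 were below 0, against 51.3% of all genes compared, and none was lower by 1.2-fold, against 13.2%.

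The conjugation enzymes, which attach ATG8 proteins to lipid, had 5 of 6 ratios above 0, against 48.7% of all genes compared. ATG12, the ubiquitin-like protein joined to ATG5, was at 35.7 FPKM in wild type and 42.3 in knockout (log2 ratio 0.24). ATG3, the E2-like enzyme, was at 22.8 and 26.3 FPKM (0.20), and ATG4B, the protease that trims ATG8 proteins, at 44.1 and 49.4 FPKM (0.16). ATG5 (0.02), ATG16L1 (0.04) and the E1-like ATG7 (-0.03) differed by at most 1.03-fold. Summed over the 6 genes, the level was 173 FPKM in wild type against 189 in knockout, a ratio of sums of 1.09. ATG3, ATG4B, ATG5, ATG7 and ATG12 each overlap a gene on the opposite strand, and although the library kit named in the labels keeps strand, no source used here says whether the counting used it.

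In the ATG8 family the GABARAP branch far outweighed the LC3 branch. GABARAP was at 115 FPKM in wild type and 134 in knockout (log2 ratio 0.23), GABARAPL2 at 77.4 and 69.6 FPKM (-0.15) and GABARAPL1 at 15.9 and 17.6 FPKM (0.15). MAP1LC3B, the usual marker of autophagosomes, was at 25.8 and 21.9 FPKM (-0.24), and MAP1LC3A at 1.49 and 1.38 FPKM (-0.11). The GABARAP branch made up 88.4% of the family's summed FPKM in wild type and 90.5% in knockout. The members below 0 included both on chromosome 16, a chromosome on which many genes had low ratios: the 20 nearest genes had a median of -0.18 around MAP1LC3B and -0.21 around GABARAPL2, where all 20 were below 0. With that median taken off, the log2 ratio of MAP1LC3B was -0.06 and that of GABARAPL2 turned to 0.06. GABARAP overlaps CTD-2545G14.7 on the same strand, so that their reads cannot be told apart with certainty.

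Of the cargo receptors, SQSTM1 (p62), which carries ubiquitinated cargo and is itself degraded by autophagy, was at 67.4 FPKM in wild type and 69.0 in knockout (log2 ratio 0.03), and NBR1 at 22.2 and 22.1 FPKM (-0.01). OPTN, optineurin, a receptor for damaged mitochondria and bacteria, was at 18.3 FPKM in wild type and 13.8 in knockout, 1.33-fold lower (log2 ratio -0.41). OPTN thus stood apart from the other receptors, and was the lowest of the autophagosome machinery. Its 20 nearest genes had a median of -0.02. OPTN overlaps CCDC3 on the opposite strand.

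Some of these genes have been reported in mouse fibroblasts as targets of ATF4 or CHOP, the transcription factors of the integrated stress response. Of 11 such members, 7 had a ratio above 0 (48.7% over all genes compared) and 4 below. The median log2 ratio was 0.02, and none reached 1.2-fold, against 21.8% of all genes compared. The highest were ATG12 and GABARAP, the lowest MAP1LC3B and GABARAPL2.

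The lysosomal genes had nearly the same median but a wider spread. Of 15 genes, 14 were compared, with 6 ratios above 0 and 8 below and a median log2 ratio of -0.02, which differs by 0.02 from that of the autophagosome machinery. The ratios ran from -0.70 to 0.50, and their standard deviation over genes was 0.32, against 0.17 for the 24 autophagosome genes and 0.28 over all genes compared. CTSZ and GAA were the lowest and GLA the highest, and the remaining 11 genes lay between -0.13 and 0.26, with a standard deviation of 0.13. The wider spread thus rests on those 3 genes, set aside here for their extreme values. The median absolute log2 ratio was 0.13 for all 14 lysosomal genes compared, against 0.12 for the autophagosome genes. The summed level was 666 FPKM in wild type and 693 in knockout.

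The proteases differed among themselves. CTSZ (ENSG00000101160, chromosome 20), which encodes the carboxypeptidase cathepsin Z, was at 17.3 FPKM in wild type and 10.6 in knockout, 1.63-fold lower (log2 ratio -0.70). CTSB, cathepsin B and the most abundant lysosomal member in wild type, was at 119 and 113 FPKM (-0.07). CTSD, the aspartic protease cathepsin D, was at 37.1 and 40.6 FPKM (0.13), and CTSA, which also protects neuraminidase and beta-galactosidase, at 27.1 and 30.4 FPKM (0.16). CTSZ was thus the only one of the 4 past 1.2-fold. It overlaps no other gene of the table. The 20 nearest genes had a median of 0.05, while PHACTR3, 3 genes away and near 1 FPKM, was at -0.66.

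Glycosidases lay on both sides. GAA (ENSG00000171298, chromosome 17), the acid alpha-glucosidase that degrades glycogen and is deficient in Pompe disease, was at 25.6 FPKM in wild type and 16.2 in knockout, 1.59-fold lower (log2 ratio -0.66). GLA (ENSG00000102393, X chromosome), the alpha-galactosidase deficient in Fabry disease, was at 97.9 FPKM in wild type and 138 in knockout, 1.41-fold higher (log2 ratio 0.50). HEXA, the alpha subunit of beta-hexosaminidase, was at 55.5 and 62.9 FPKM (0.18). GAA and GLA were the members farthest apart among the enzymes that split sugars.

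GLA ran against its surroundings and GAA stood out from them. The 20 genes nearest to GLA had a median log2 ratio of -0.25, with 18 of 20 below 0. With that median taken off, the log2 ratio of GLA was 0.75, past 1.5-fold. On the opposite strand GLA overlaps the readthrough RPL36A-HNRNPH2, at 2.98 FPKM in wild type and 3.31 in knockout, and the genes that readthrough joins were lower in knockout: RPL36A at 1493 and 1195 FPKM (log2 ratio -0.32) and HNRNPH2 at 39.1 and 33.1 FPKM (-0.24). The 20 genes nearest to GAA had a median of -0.03. GAA overlaps no other gene of the table, and its neighbour SGSH, another lysosomal hydrolase, was at 30.8 and 29.0 FPKM (-0.09).

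**Figure D3:**
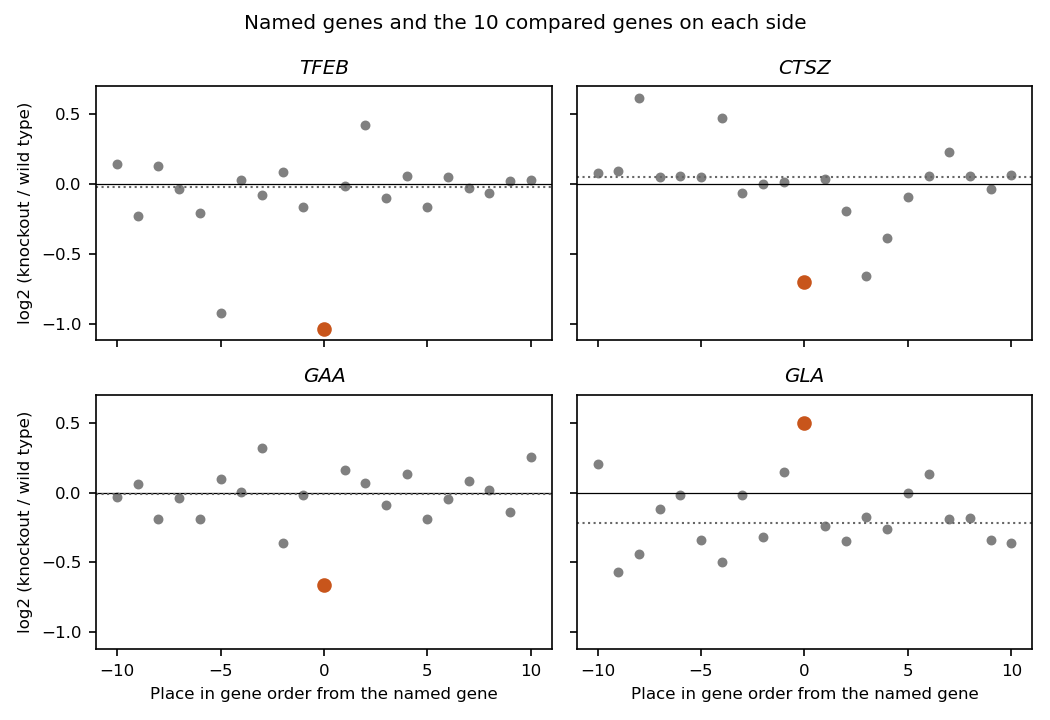
The log2 ratio of knockout over wild type (vertical) for TFEB, CTSZ, GAA and GLA (large points) and the 10 compared genes on each side in gene order (small points), with a dotted line at the neighbours' median. TFEB and GAA lie below all 20 neighbours shown, CTSZ below all of its own, and GLA above all of its own, most of which are below 0.

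NEU1, the neuraminidase, was listed at 0 in both columns and has no ratio. Its row carries the Ensembl ID ENSG00000227315, while the name table used pairs NEU1 with ENSG00000204386, which is not in the deposited table. The row's ID is not on a primary chromosome of the annotation used, as for 655 of the 2350 genes listed at 0 in both columns (27.9%) and for 39 of the other 17542 genes (0.222%). The listed 0 therefore does not show that NEU1 was silent.

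Membrane protein and proton pump genes among the members were within 1.2-fold. LAMP1, the abundant lysosomal membrane glycoprotein, was at 61.4 FPKM in wild type and 62.8 in knockout (log2 ratio 0.03), and LAMP2, which also serves as a receptor for chaperone-mediated autophagy, at 44.0 and 40.1 FPKM (-0.13). MCOLN1, the lysosomal calcium channel and a TFEB target, was at 12.9 and 15.4 FPKM (0.26), just under 1.2-fold. It overlaps PNPLA6 and a further gene model on the same strand. The 4 proton pump genes were all slightly below 0, with a summed level of 169 FPKM in wild type and 163 in knockout. Of these, ATP6V1A, the catalytic subunit, had a log2 ratio of -0.13, the membrane subunit ATP6V0D1 -0.05, the accessory protein ATP6AP1 -0.03 and ATP6V1H, a subunit of the catalytic domain, -0.01.

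The promoters of these genes were searched for the element that TFEB and TFE3 bind, in RefSeq windows on build GRCh38.p14 from 250 bases before to 50 after each start site. Windows matched 35 of the 41 genes, 23 of 24 of the autophagosome machinery, 10 of 15 lysosomal genes and both transcription factors. The lysosomal side was thus less fully covered. The letters TCACGTGA, which read the same on both strands and contain the E-box CACGTG, were present for 5 of 10 lysosomal genes (LAMP1, CTSA, GAA, MCOLN1 and ATP6V0D1), for 1 of 23 autophagosome genes (ATG3) and for neither TFEB nor TFE3. Of all 27305 genes with a window, 1.18% hold these letters, and of the 10593 compared genes with a window 2.27%. GAA, MCOLN1 and LAMP1 hold them in a pair of copies each. Both copies of GAA and 1 copy of MCOLN1 have G before and C after, a longer form present for 0.421% of all genes with a window. The shorter CACGTG alone was present for 7 of 10 lysosomal genes, CTSD and NEU1 besides those named. It was present for 2 of 23 autophagosome genes, ATG14 besides ATG3, and for 8.77% of all genes with a window.

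The promoters of GAA and MCOLN1 are shown because they carry the same element and the genes had ratios of opposite sign, and short stretches of other promoters because they carry it beside ratios near 0. Capitals mark TCACGTGA, and all are written 5′ to 3′ on the strand of the gene.
GAA, chr17:80101331-80101580, plus strand: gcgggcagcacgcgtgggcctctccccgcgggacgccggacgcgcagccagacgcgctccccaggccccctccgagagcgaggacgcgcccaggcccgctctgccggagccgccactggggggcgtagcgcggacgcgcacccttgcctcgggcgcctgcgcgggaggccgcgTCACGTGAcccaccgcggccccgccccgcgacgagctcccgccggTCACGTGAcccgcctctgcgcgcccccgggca
MCOLN1, chr19:7522374-7522623, plus strand: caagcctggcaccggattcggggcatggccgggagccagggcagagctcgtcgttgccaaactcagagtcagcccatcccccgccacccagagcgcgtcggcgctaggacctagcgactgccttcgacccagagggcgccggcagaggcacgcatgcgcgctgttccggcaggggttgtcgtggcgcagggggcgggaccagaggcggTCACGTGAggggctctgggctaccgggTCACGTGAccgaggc
LAMP1, chr13:113297199-113297228, plus strand: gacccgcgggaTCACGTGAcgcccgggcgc
CTSA, chr20:45891298-45891327, plus strand: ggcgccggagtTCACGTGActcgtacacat
ATP6V0D1, chr16:67481199-67481228, minus strand: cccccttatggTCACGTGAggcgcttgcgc

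The copies begin 77 and 32 bases before the start site of GAA and 42 and 15 bases before that of MCOLN1. Those of LAMP1 begin 29 and 2 bases before its start site, and the stretch shown holds only the copy at 29. With the element in both GAA and MCOLN1, GAA had a log2 ratio of -0.66 and MCOLN1 of 0.26. LAMP1 (0.03), CTSA (0.16) and ATP6V0D1 (-0.05), which also hold it, were within 1.2-fold. The element was therefore found in genes with ratios on either side of 0.

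CTSZ, GLA and TFEB, the other members past 1.4-fold, hold no TCACGTGA in these windows. Their stretches are printed in lower case for comparison, for TFEB the first of the 3 windows listed.
CTSZ, chr20:59007255-59007504, minus strand: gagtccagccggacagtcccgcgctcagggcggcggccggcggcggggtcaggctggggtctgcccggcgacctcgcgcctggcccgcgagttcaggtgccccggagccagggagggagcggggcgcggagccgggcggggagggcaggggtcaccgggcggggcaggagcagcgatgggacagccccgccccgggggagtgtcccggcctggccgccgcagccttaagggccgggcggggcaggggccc
GLA, chrX:101407926-101408175, minus strand: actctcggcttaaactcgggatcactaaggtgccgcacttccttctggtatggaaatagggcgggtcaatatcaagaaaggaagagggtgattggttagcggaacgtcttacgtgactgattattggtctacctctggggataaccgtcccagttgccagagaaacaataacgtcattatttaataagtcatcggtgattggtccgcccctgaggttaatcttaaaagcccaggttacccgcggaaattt
TFEB, chr6:41735609-41735858, minus strand: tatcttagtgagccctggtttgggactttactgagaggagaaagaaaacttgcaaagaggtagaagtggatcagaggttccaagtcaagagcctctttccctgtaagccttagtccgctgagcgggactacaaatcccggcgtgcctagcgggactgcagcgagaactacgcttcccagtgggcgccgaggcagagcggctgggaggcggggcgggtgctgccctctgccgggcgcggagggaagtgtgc

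Over all 240 compared genes with TCACGTGA, 125 had a ratio above 0 and 115 below. Their median log2 ratio was 0.01, against -0.00 for compared genes with a window but without these letters. Of these 240, 1 was higher and 5 lower by 1.5-fold, 2.50% in all. Over all 13219 genes compared, with or without a window, it was 4.27%. That is an unlike set, and no share was taken for genes with a window alone.

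Other genes of the pathway were taken from 8 lists made from general knowledge, 175 genes of which 167 were compared. At 1.5-fold, 2 were higher and 1 lower (1.80% of 167, against 4.27% of all genes compared). The median log2 ratio was -0.03, and 98 genes were below 0 and 69 above, against 51.3% of all genes compared below 0.

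Autophagy genes outside the members were spread around 0. Of 17 compared genes for initiation and elongation, 9 were below 0, with a median log2 ratio of -0.03. Their extremes were ATG4C, a protease of the ATG4 family (20.5 to 14.7 FPKM, -0.47), and AMBRA1, a regulator of BECN1 (12.5 to 16.0 FPKM, 0.35). Of 11 selective receptors and their partners, 6 were below 0 (median -0.04), from FYCO1, an adaptor that links autophagosomes to kinesin (-0.36), to the kinase TBK1, which phosphorylates OPTN and SQSTM1 (0.20). The 16 genes for fusion with the lysosome had a median of -0.02, from the SNARE protein STX17 (-0.26) to the tethering subunit VPS16 (0.32), which overlaps PTPRA on the same strand. No compared gene of these 3 lists reached 1.5-fold, against 4.27% of all genes compared.

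Of 39 compared lysosomal hydrolases outside the members, 27 were below 0 and 12 above, where 51.3% of all genes compared were below 0, a difference that was not tested. Their median log2 ratio was -0.17, against -0.01 over all genes, and their summed level was 1109 FPKM in wild type and 1024 in knockout. At 1.5-fold, 1 of the 39 was lower, against 2.78% of all genes compared, and 1 higher, against 1.48%. The lower was CTSH, an aminopeptidase cathepsin (6.15 to 3.83 FPKM, log2 ratio -0.68), and the higher was CTSF, cathepsin F (0.776 to 1.27 FPKM, 0.71). At 1.2-fold, 9 of the 39 were lower and 4 higher, 33.3% in all, against 21.8% of all genes compared. The abundant PSAP, precursor of the sphingolipid activator proteins, named after its value was seen, was at 197 and 156 FPKM (-0.34).

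Of 20 compared lysosomal membrane proteins outside the members, 15 were below 0, against 51.3% of all genes compared, also not tested. Their median log2 ratio was -0.07 and none reached 1.5-fold, against 4.27% of all genes compared. The lowest was CD63, a tetraspanin of late endosomes and lysosomes, at 445 FPKM in wild type and 314 in knockout (log2 ratio -0.50), followed by the sialic acid exporter SLC17A5, named after its value was seen (-0.50). The highest was the cholesterol transporter NPC1 at 42.1 and 48.7 FPKM (0.21). The other 18 compared proton pump subunits had a median of -0.07, from ATP6V1C2 (-0.49) at 3.06 FPKM in wild type to TCIRG1 (0.30). At 1.2-fold, 2 of the 18 were higher and 6 lower, 44.4% in all, against 21.8% of all genes compared. That difference was not tested. The 13 genes that sort enzymes to the lysosome had a median of -0.01, all within 1.2-fold, against 78.2% of all genes compared. They ran from the adaptor GGA2 (-0.24) to GNPTG (0.23), a subunit of the enzyme that makes the mannose 6-phosphate tag. Both lie on chromosome 16, where the 20 nearest genes had a median of -0.16 around GGA2 and 0.15 around GNPTG.

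Of 33 compared genes for mTORC1 and nutrient sensing, 18 were above 0 and 15 below, where 48.7% of all genes compared were above 0. The median log2 ratio was 0.01. At 1.5-fold, 3.03% of the 33 were called, against 4.27% of all genes compared. At 1.2-fold, 6 were higher and 3 lower, 27.3% in all, against 21.8% of all genes compared. DDIT4, an inhibitor of mTORC1 signalling, was the single gene past 1.5-fold and the highest (43.2 to 71.2 FPKM, 0.72). RRAGD, a Rag GTPase that recruits mTORC1 and a known TFEB target, was the lowest (22.4 to 17.5 FPKM, -0.35).

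**Figure D4:**
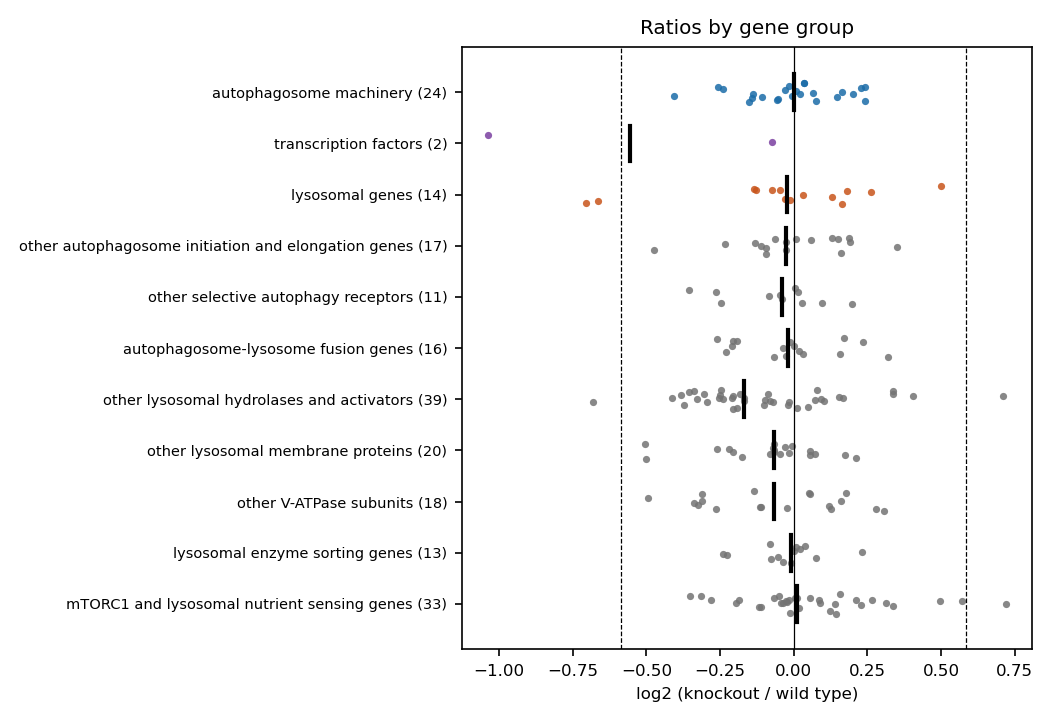
The log2 ratio of knockout over wild type for each compared gene (points) in the 3 member groups and 8 further lists, with the number of genes in brackets, medians as thick bars and dashed lines at 1.5-fold. The autophagosome machinery (-0.00) and lysosomal members (-0.02) have medians near 0, while the other lysosomal hydrolases have a median of -0.17.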

How the data were processed

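The library kit keeps strand, per the labels' protocols. The submitters' processing notes name TopHat, Cufflinks and Cuffdiff and the build hg19 but no versions. The FPKM values were computed and deposited by the authors, 1 per gene and group. The unit is inferred from these tools and the range of values. The deposited log2 ratio is wild type over knockout and was not used except to check that it is the negative of the ratio used for 16867 genes above 0 in both columns. No source used here gives the annotation behind the FPKM, and depth is unknown.

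A gene was compared where one column reached an FPKM of 1 and both were above 0, without a pseudocount. With 1 value per group no test was run, and genes were counted at 1.5-fold. Members and lists were chosen with earlier results of these data known. Named genes are all members, CNBP, and from each further list the genes at 1.5-fold and the highest and lowest ratio. Genes outside this rule, named with their values already known, are relatives of TFEB, neighbouring and overlapping genes, PSAP, SLC17A5, NCOA4 and the enzymes regrouped by substrate. Some genes are not reported here. Of the list genes, 3 were matched by Ensembl ID. Gene order and overlaps came from GENCODE release 29, on another build, so only promoter windows carry coordinates. Functions were checked on simulated data. Python 3.11.15, numpy 2.4.6, pandas 2.3.3 and matplotlib 3.10.9 were used. Alternatives were pseudocounts of 1 and 0.1, centring, neighbours' median taken off, other minimums and folds, and overlapping genes left out.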

Additional observations from a re-analysis of the deposited data

How the results depend on the processing

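The medians of the autophagosome machinery (-0.02 to 0.01) and of the lysosomal members (-0.05 to -0.01) and their difference (0.01 to 0.04) moved by less than 0.1 on the log2 scale under pseudocounts of 1 and 0.1, centring, the neighbours' median taken off, no minimum, a minimum FPKM of 5 and same-strand overlaps left out. The sign of the autophagosome median was not stable. With the neighbours' median taken off, 1 member (GLA) was higher by 1.5-fold in place of 0, and 6 members had the other sign (BECN1, ATG2A, GABARAPL2, TFE3, LAMP1 and ATP6V0D1). At 2-fold 1 member was lower, and at 1.2-fold 1 was higher. The log2 ratio of TFEB was between -1.05 and -0.84, the latter with a pseudocount of 1. Alternatives for the other lists were chosen after the data were seen. Of their genes, 1 was higher and 0 lower with a pseudocount of 1, 3 were lower with no minimum, 1 was higher with a minimum of 5, 0 were higher and 0 lower at 2-fold, and 14 were higher and 23 lower at 1.2-fold. The median of the other hydrolases was between -0.17 and -0.14. No paired analysis was possible because the table has no values per library, and for the same reason no replicate could be left out. The depth of the libraries is unknown.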

Other observations

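Lysosomal enzymes were regrouped by substrate after their values were seen, across the members and the further list of hydrolases. Of 9 enzymes that degrade glycosaminoglycans, 8 had a ratio below 0 (51.3% of all genes compared), and the median log2 ratio was -0.24. Among them were IDUA (-0.30), IDS (-0.10), SGSH (-0.09), NAGLU (-0.29) and HGSNAT (-0.24), enzymes deficient in several mucopolysaccharidoses, and GALNS (-0.33) and ARSB (-0.25). GUSB, beta-glucuronidase, was at 41.8 FPKM in wild type and 37.1 in knockout (-0.17). The exception was GLB1, beta-galactosidase, at 45.8 and 48.1 FPKM (0.07). None reached 1.5-fold, against 4.27% of all genes compared. GALNS lies on chromosome 16, where its 20 nearest genes had a median of -0.16.

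Genes of sphingolipid degradation included ratios of both signs. Of 10 genes taken, 9 were compared, with 6 ratios below 0 and 3 above (51.3% of all genes compared were below 0). The lowest were the activator protein GM2A (-0.41), the acid ceramidase ASAH1 (-0.38), the arylsulfatase ARSA (-0.37) and the acid sphingomyelinase SMPD1 (-0.35), and the highest was GLA (0.50).

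NCOA4, the receptor for ferritin, was listed at 0 in both columns although its Ensembl ID is on a primary chromosome of the annotation used, so that a listed 0 can also occur for a gene whose ID is placed.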
